A study of Mus musculus with 2 samples.

Results

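LIG was the cluster of ligament-like mesenchymal cells in a single-cell RNA sequencing study of the mouse coronal suture, the fibrous joint between the frontal and parietal bones of the skull. Its members were the cells that the authors labelled LIG in the cell table deposited with the count matrices, and they were found in the matrices by barcode and library. They numbered 1172 of 12165 labelled osteogenic and mesenchymal cells, of which 497 of 5335 came from embryos of stage E15.5 and 675 of 6830 from stage E17.5, the numbers being embryonic days. LIG thus made up 9.32% of the labelled cells at E15.5 (95% exact Clopper-Pearson interval 8.55 to 10.1%) and 9.88% at E17.5 (9.19 to 10.6%). Both groups were wild-type C57/BL6 embryos, and no animal was treated or genetically modified. For E15.5, 10 sutures were pooled in 1 batch, digested with collagenase II plus dispase, and dead cells were taken out with a kit. The E17.5 matrix joined 3 batches with 10, 3 and 3 sutures from 2 litters, digested with collagenase IV, and were sorted by FACS against debris, doublets and dead cells. The 2 libraries were also sequenced at different centres and to different depths. Effects of stage, litter, enzyme, sorting, sequencing, gene list and software version cannot be told apart, since all of them separate the same pair of libraries. In both, skin, brain and part of the meninges had been removed. The other labels were 4 ectocranial clusters (EC1 to EC4), 4 meningeal clusters (MG1 to MG4), 4 osteogenic clusters (OG1 to OG4) and 2 proliferative osteogenic clusters (PO1 and PO2).

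Tendons and ligaments are dense connective tissues of parallel type I collagen fibrils, made by fibroblasts that descend from mesenchyme and, in the head, largely from cranial neural crest. The transcription factors Scleraxis and Mohawk act in their formation, and tenomodulin is a membrane glycoprotein of the maturing tissue. Ligament fibroblasts can also carry actin and myosin genes shared with smooth muscle, which smooth muscle cells express through serum response factor bound to the CArG box, a motif of CC, 6 letters that are A or T, and GG. Sequences of *Myl9*, *Cnn2*, *Acta2* and *Chodl* are shown as examples from the contractile and marker lists that hold the motifs marked below. Each is a stretch before the RefSeq start site (build GRCm38.p6) that no GENCODE exon covers. Where an exon covers a box, 30 bases around it are given. The *Myl9* stretch was read on the plus strand (chr2:156775214-156775419), the *Cnn2* stretch on the plus strand (chr10:79988350-79988583), and both *Acta2* sites on the minus strand (chr19:34255438-34255467 and chr19:34255388-34255417). Capitals mark CArG boxes and near matches, in which 1 of the middle 6 letters is G or C. In the *Chodl* stretch, on the plus strand (chr16:78930698-78930947), capitals mark E-boxes (CANNTG), the motif read by basic helix-loop-helix factors such as Scleraxis.
Myl9: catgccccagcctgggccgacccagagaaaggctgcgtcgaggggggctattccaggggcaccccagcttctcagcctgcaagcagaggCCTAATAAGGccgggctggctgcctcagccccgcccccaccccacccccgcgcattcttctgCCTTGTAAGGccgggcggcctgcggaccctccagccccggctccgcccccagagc
Cnn2: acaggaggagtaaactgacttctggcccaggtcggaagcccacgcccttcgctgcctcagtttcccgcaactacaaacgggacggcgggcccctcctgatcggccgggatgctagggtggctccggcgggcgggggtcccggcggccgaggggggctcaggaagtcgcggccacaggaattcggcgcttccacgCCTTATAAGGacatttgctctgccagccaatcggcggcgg
Acta2 distal site: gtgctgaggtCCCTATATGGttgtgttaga
Acta2 proximal site: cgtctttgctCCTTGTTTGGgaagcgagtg
Chodl: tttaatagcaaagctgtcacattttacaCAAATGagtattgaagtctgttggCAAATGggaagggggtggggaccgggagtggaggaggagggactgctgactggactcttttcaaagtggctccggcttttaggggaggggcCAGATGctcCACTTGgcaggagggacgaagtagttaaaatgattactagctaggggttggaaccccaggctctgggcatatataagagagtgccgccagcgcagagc

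*Myl9* held 2 boxes in the 250 bases before its start, an exact box that began 161 bases upstream and a near match at 99 bases. *Cnn2* held an exact box at 56 bases, and *Acta2* held near matches at 84 and 34 bases. Of the 21 contractile genes with a RefSeq promoter among 25 listed, 3 had an exact CArG box (14.3%), *Myl9*, *Cnn2* and *Ldb3*, against 439 of all 27025 genes with a promoter (1.62%). *Tagln*, *Actg2* and *Myh11* were among the 4 genes without a promoter entry and are not in these counts. With near matches the counts were 4 of 21 (19%) and 2643 of 27025 (9.78%). *Cnn1* held no box or near match, and *Ldb3* was at 0 CPM in LIG at E17.5. E-boxes were present in the promoters of *Tac1* and *Chodl* and not in that of *Tnmd*, and 69.3% of all genes had at least 1. The boxes are letters in a window, and no binding was measured.

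LIG cells had a median of 7115 unique molecular identifiers (UMIs) and 2402 genes per cell at E15.5 and 12300 UMIs and 3287 genes at E17.5, and the pooled LIG cells held 3988807 and 9208082 UMIs. The other labelled cells had medians of 8671 and 12303 UMIs. Levels are given as UMIs scaled to a total of 1000000 UMIs of the pooled cells (CPM), with exact Poisson 95% intervals, which cover counting error only and not differences between embryos. With 1 library per stage there is no replicate of a stage, and the authors made the clusters from these same cells, so no test was run and a fold of LIG over other cells describes the cluster. Fold intervals in brackets are exact binomial 95% intervals of the ratio. Barcodes at E17.5 carried suffixes from 1 to 3, which the sources used here do not assign to the batches, and LIG cells made up 2.59% of labelled cells with suffix 1 (32 cells), 11.3% with suffix 2 (314 cells) and 11.6% with suffix 3 (329 cells). At E15.5 the UMIs of none of the 497 LIG cells equalled those in the authors' table, whereas all 675 did at E17.5. Their median at E15.5 was 7115 UMIs in the matrix and 9700 in the table. The libraries shared 1 LIG barcode, and 42 over all labelled cells. Scores for doublets in the top 6% of their suffix or library, ties included, were found in 26 LIG cells of the E15.5 library and 39 of the E17.5 library. Cells in G2M by the authors' phase call were 5.84% of LIG at E15.5, when the other clusters together had 11.1%, and 7.7% of LIG at E17.5, when they had 16%. The comparison holds the proliferative clusters PO1 and PO2, and EC4 had 6.4% and 6.22%. Cells in S phase were 23.7% and 15.7% of LIG, 21.5% and 20.1% of the other labelled cells and 14.5% and 14.6% of EC4.

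The markers that define the cluster stood above most other clusters in both libraries, and *Tac1* and *Chodl* were highest in LIG among all 15 clusters. *Tnmd*, which encodes tenomodulin (ENSMUSG00000031250, chromosome X from 133850980 to 133865577), was at 536 CPM in LIG at E15.5 (513 to 559) and 664 CPM at E17.5 (647 to 681). Its level in EC4, the ectocranial cluster above the suture, was 319 and 404 CPM, and in MG1, a layer of the meninges, 210 and 704 CPM. LIG was therefore the highest cluster for *Tnmd* at E15.5 and the next after MG1 at E17.5. *Mkx*, which encodes Mohawk, was at 73.7 CPM in LIG (65.5 to 82.6) and 60.3 CPM in EC4 (53 to 68.3) at E15.5, with overlapping intervals, and at 98.2 CPM (91.9 to 105) and 73.2 CPM (65.5 to 81.6) at E17.5.

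*Tac1* (ENSMUSG00000061762, chromosome 6 from 7554879 to 7565834) encodes the precursor of substance P and neurokinin A. It had 55.4 CPM in LIG at E15.5 (48.3 to 63.2), where OG1 came next with 17.2 CPM (11.8 to 24.1), and 340 CPM at E17.5 (328 to 352), where EC4 came next with 57.4 CPM (50.6 to 64.9). *Chodl* (ENSMUSG00000022860, chromosome 16 from 78930948 to 78951733) encodes chondrolectin, a membrane lectin. It had 79.5 CPM in LIG at E15.5 (71 to 88.7) against 27.8 CPM in EC4 (23 to 33.5), and 320 CPM at E17.5 (308 to 331) against 50.1 CPM (43.7 to 57.1). Over all other labelled cells the folds of LIG at E15.5 and E17.5 were 5.34 and 29.7 for *Tac1*, 9.96 and 22.1 for *Chodl*, 7.93 and 5.68 for *Tnmd*, and 5.57 and 3.39 for *Mkx*. The folds of *Tac1* and *Chodl* were larger at E17.5 and those of *Tnmd* and *Mkx* smaller.

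**Figure D1:**
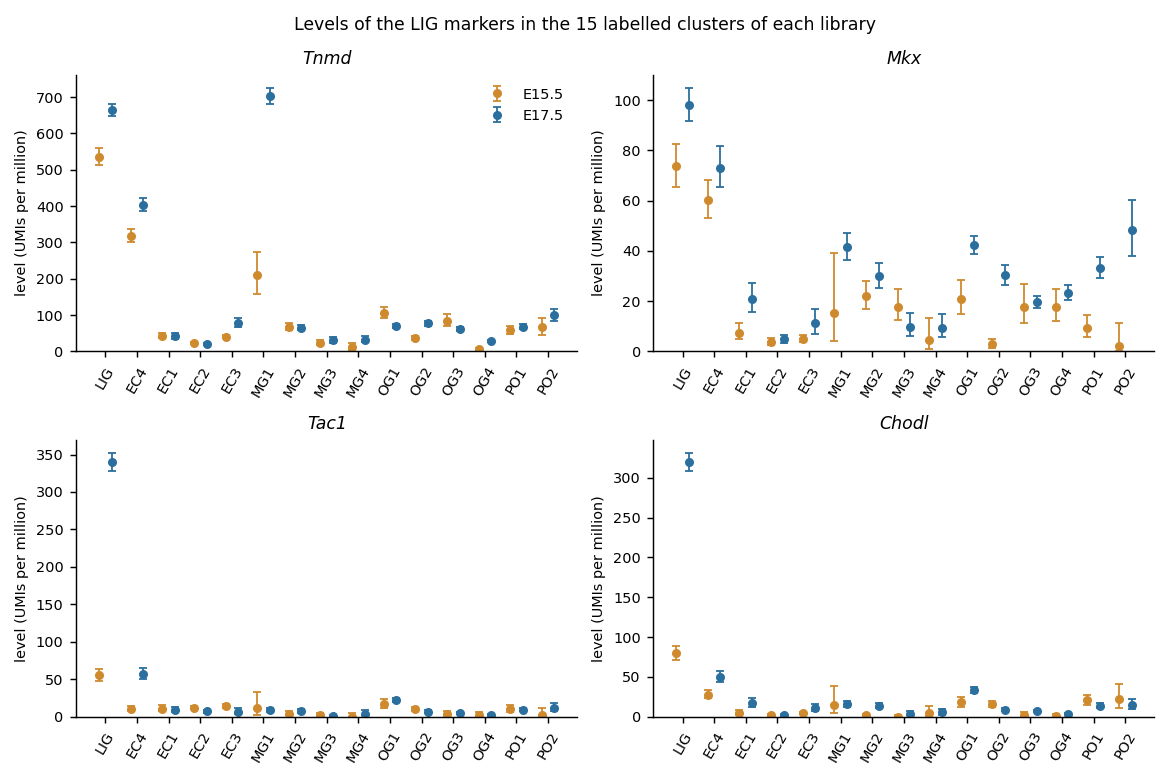
Levels of *Tnmd*, *Mkx*, *Tac1* and *Chodl* in the 15 labelled clusters, in CPM on a linear axis, with orange points for E15.5 and blue points for E17.5. Bars are exact Poisson 95% intervals, and LIG is highest in all panels except for *Tnmd* at E17.5, where MG1 has 704 CPM and LIG 664 CPM.

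The markers were found across the E17.5 suffixes. For suffixes 1, 2 and 3 in this order, LIG had 427, 353 and 322 CPM of *Tac1*, 253, 329 and 316 CPM of *Chodl*, 112, 104 and 92.1 CPM of *Mkx*, and 380, 703 and 650 CPM of *Tnmd*. The level of *Tnmd* with suffix 1 was lower than with the others, and the other labelled cells had 54.4, 129 and 132 CPM in the same order. UMIs of *Tac1* were found in 17.9% of LIG cells in the E15.5 library and 70.7% in the E17.5 library, and after thinning each cell to 3000 UMIs in 11% of 482 cells and 47.6% of 675. The other labelled cells had 2.45% and 2.88% after thinning. For *Chodl* the shares of LIG cells were 32% and 82.1%, or 17.8% and 53.9% after thinning, against 1.85% and 4.13% of the other labelled cells. For *Tnmd* they were 81.1% and 93.6%, or 63.9% and 75.7% after thinning, and for *Mkx* 37.8% and 68%, or 18.9% and 28.1%.

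The background from free RNA was read from unlabelled cells within the authors' filter limits with UMIs of *C1qa*, *C1qb* and *Csf1r*, genes of macrophages, which should lack these markers. Of 318 such cells in the earlier library and 610 in the later one, with median depths of 10050 and 10197 UMIs, 2.52% and 5.25% had a UMI of *Tac1*, 1.26% and 4.92% of *Chodl*, 2.2% and 6.39% of *Mkx*, and 6.29% and 15.7% of *Tnmd*. After thinning their shares were 0.962% and 1.31% for *Tac1*, 0.321% and 1.8% for *Chodl*, 0.641% and 1.15% for *Mkx*, and 2.24% and 4.92% for *Tnmd*. All 4 markers were thus found in a larger share of LIG cells than of these cells in both libraries. *Scx*, which encodes Scleraxis, was found in few cells at E15.5. After thinning it was found there in 1.66% of LIG cells, 1.73% of the other labelled cells and 0.321% of the macrophage-marker cells. At E17.5 the shares were 9.33%, 4.84% and 0.82%. A separate random thinning of the 482 LIG cells at E15.5 found *Scx* in 0 of 42 cells with *Acta2* and 15 of 440 without. The share of 1.66% thus varied with the draw.

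Across the transcriptome, 51 of 6856 genes with at least 50 UMIs in LIG in each library were at least 2-fold above the other labelled cells in both libraries, which is 0.744%. The median log2 fold over all these genes was 0.02 at E15.5 and −0.04 at E17.5. In the lower direction, 139 of 6860 genes for which the other cells' level would have given at least 50 UMIs in LIG were at least 2-fold below, or 2.03%. Listed bone genes made up 7 of these 139, and among them *Ibsp*, which encodes bone sialoprotein, was at 42.6 CPM in LIG and 1740 CPM elsewhere at E15.5, and at 111 and 1851 CPM at E17.5. Without suffix 1 the higher group kept 50 of its 51 genes, and without the cells called doublets 44.

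The 25 leading genes, ordered by the smaller of the 2 folds, included genes of secreted and matrix proteins. *Sfrp2* (ENSMUSG00000027996, chromosome 3 from 83766321 to 83774316), a secreted modulator of Wnt signalling, had 5580 CPM in LIG at E15.5 (5507 to 5653) and 10093 CPM at E17.5 (10028 to 10158), against 1703 and 1091 CPM in the other labelled cells. LIG was the highest of the 15 clusters for this gene in both libraries, and EC4 came next with 3380 and 6782 CPM. The folds were 3.28 (3.23 to 3.33) and 9.25 (9.17 to 9.34). *Gm26771* lies on the opposite strand and overlaps the end of *Sfrp2*, so its folds of 3.29 and 7.38 are uncertain, since the use of strand in counting was not given in the sources used here.

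*Igfbp3*, an insulin-like growth factor binding protein, had 374 and 911 CPM in LIG and 4.52 and 3.68 times the level of the other labelled cells. *Col8a1*, a short-chain collagen, had 1167 and 887 CPM and folds of 4.16 and 3.3. *Cxcl14*, a chemokine, had 1099 and 499 CPM and folds of 3.76 and 2.83. These 3 genes were shared with EC4, where *Igfbp3* was at 478 and 3198 CPM, *Col8a1* at 1411 and 2186 CPM and *Cxcl14* at 1426 and 1541 CPM, each above LIG in both libraries. *Cpxm2*, of the carboxypeptidase family, had 49.4 CPM at E15.5 and 187 CPM at E17.5, with folds of 3.76 and 5.89, and *Megf6*, a gene with EGF-like repeats, had folds of 3.07 and 3.43. *Megf6* was at 42.1 and 94.8 CPM in LIG and at 44.2 and 84.6 CPM in EC4.

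Cell surface genes formed another part of the 25. *Alcam*, a cell adhesion molecule, was at 421 and 393 CPM in LIG, with folds of 3.45 and 3.33, and was highest in LIG in both libraries. The adhesion receptors *Adgrl2* and *Adgrg6* had folds of 3.2 and 4.37 and of 3.01 and 3.69. *Cpm*, which encodes the membrane enzyme carboxypeptidase M, had 12.8 CPM at E15.5 and 34.4 CPM at E17.5, with folds of 3.24 and 4.51. *Kctd8*, an auxiliary subunit of GABA type B receptors, had 28.6 and 23 CPM with folds of 5.64 and 4.81, while EC4 had 26.4 and 21.1 CPM.

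*Gsc*, which encodes the homeobox factor Goosecoid, had 17.8 CPM in LIG at E15.5 and 45.1 CPM at E17.5, with folds of 10.7 (7.64 to 15.1) and 4.63 (4.1 to 5.22). It was highest in LIG in both libraries. Of genes that act inside the cell, *Dmd*, which encodes dystrophin, had folds of 3.54 and 3.14, *Rflna*, which encodes a filamin-binding protein, 2.84 and 5.28, the phosphodiesterase gene *Pde3a* 3.23 and 4.35, the lipid phosphatase gene *Inpp4b* 3.03 and 3.86, *Ralgps2*, an exchange factor for Ral, 3.35 and 3.32, and *Mab21l1* 2.84 and 5.4. *Aff2* had folds of 4.68 and 3.42 and *Brinp1* of 3.7 and 2.83. EC4 had more *Rflna* than LIG in both libraries, 48.6 and 49.4 against 44.6 and 42.7 CPM. For *Ralgps2* EC4 had 69.4 and 132 against 82.5 and 104 CPM. LIG was higher for *Inpp4b* (13 and 9.45 against 11.7 and 6.68 CPM), *Pde3a* (43.1 and 42.6 against 27.4 and 36.9 CPM) and *Mab21l1* (13 and 19.1 against 7.82 and 10.5 CPM). *Inpp4b* had no UMI in the 32 LIG cells of suffix 1.

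**Figure D2:**
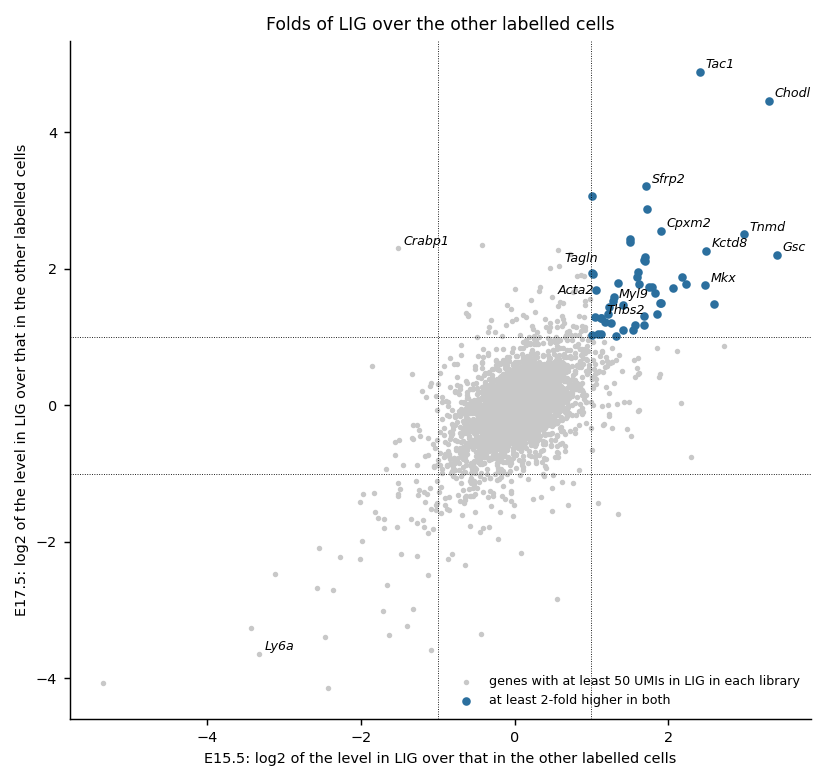
Each point is a gene with at least 50 UMIs in LIG in each library, placed by the log2 of its level in LIG over that in the other labelled cells at E15.5 (horizontal axis) and E17.5 (vertical axis), and blue points are at least 2-fold higher in both. *Tac1* and *Chodl* lie highest at E17.5, with folds of 29.7 and 22.1, and *Crabp1* lies below the other cells at E15.5 (0.349) and above them at E17.5 (4.93).

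The tendon and ligament genes were described as a list of 28, of which 18 had at least 50 UMIs in LIG in each library. Of these, 6 were at least 2-fold higher in both libraries (*Mkx*, *Tnmd*, *Thbs2*, *Chodl*, *Tac1* and *Cpxm2*) and *Htra3*, a secreted protease, was at least 2-fold lower, with folds of 0.411 and 0.465. The median log2 fold of the list was 0.70 in the E15.5 library and 0.57 in the E17.5 library. *Mkx*, *Tnmd*, *Chodl* and *Tac1* are markers of the cluster itself, so the list is not independent of the label. *Thbs2*, a matricellular thrombospondin, was at 266 CPM (250 to 282) and 902 CPM (882 to 921), folds of 2.17 and 2.44 over the other labelled cells.

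*Scx* (ENSMUSG00000034161, chromosome 15 from 76457452 to 76459458) had 46 UMIs in LIG at E15.5, or 11.5 CPM (8.44 to 15.4), and 391 at E17.5, or 42.5 CPM (38.4 to 46.9). The other labelled cells had 5.8 and 16.1 CPM, folds of 1.99 (1.42 to 2.73) and 2.64 (2.35 to 2.95). MG2 had more in both libraries, with 45.5 and 87.6 CPM. Several genes of mature tendon were close to absent in LIG. *Thbs4* had 5 and 2 UMIs and *Kera*, which encodes keratocan, 7 and 7. *Comp*, a cartilage and tendon matrix protein, had 17 and 21 UMIs. *Fmod*, which encodes the small proteoglycan fibromodulin, was at 88.7 and 221 CPM, with folds of 1.73 and 1.27, and *Tnc*, which encodes tenascin C, was at 64.9 and 417 CPM, with folds of 2.96 and 1.33. *Cnmd*, which encodes chondromodulin, a relative of tenomodulin, was at 55.7 CPM at E15.5 and 10.3 CPM at E17.5.

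Fibrillar collagen and small proteoglycan genes were abundant in LIG without standing 2-fold above the other mesenchyme. Of 26 listed genes, 20 had at least 50 UMIs in each library, none was 2-fold higher in both, and *Col5a3* and *Col22a1* were at least 2-fold lower. Among all genes, 0.744% were higher and 2.03% lower in both. *Col1a1* was at 7667 CPM in LIG at E15.5 and 14991 CPM at E17.5, folds of 1.21 and 1.45, and *Col1a2* at 8353 and 13211 CPM, folds of 1.2 and 1.53. The 2 chains of type I collagen thus had nearly the same folds, while *Col3a1*, of type III collagen, was lower in LIG in both libraries (0.849 and 0.846). *Col11a1*, which nucleates fibrils with type II or type I collagen, had folds of 1.89 and 2.14, and *Col12a1*, a collagen that binds fibril surfaces and is known in ligaments, 1.43 and 1.92. *Bgn*, which encodes biglycan, had 1.56 and 1.53, and *Aspn*, which encodes asporin, 2.44 and 1.25.

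Of the 25 contractile genes of smooth muscle, 12 had at least 50 UMIs in each library, and *Myl9* was the member at least 2-fold higher in both. The median log2 fold of the list was 0.51 and 0.32, and 9 of the 12 were above the other labelled cells in both libraries, against 2118 of 6856 genes. *Myl9* (chromosome 2 from 156775420 to 156781658), a regulatory myosin light chain, was at 255 CPM in LIG at E15.5 and 491 CPM at E17.5, against 105 and 170 CPM, folds of 2.43 and 2.88. *Tpm1*, which encodes a tropomyosin, was at 562 and 1117 CPM with folds of 1.45 and 2.01, and *Cnn2*, a calponin, at 266 and 574 CPM with folds of 1.6 and 1.76.

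*Acta2* and *Tagln*, the smooth muscle actin and transgelin genes, had folds in LIG over the pooled other labelled cells of 1.4 and 1.49 at E15.5 and of 3 and 4.12 at E17.5. *Acta2* (chromosome 19 from 34241090 to 34255590) was at 63.2 CPM in LIG at E15.5 (55.6 to 71.5) against 45 CPM in the other labelled cells, when OG1 had 252 CPM and LIG was the fifth of 15 clusters. At E17.5 it was at 654 CPM (637 to 670) against 218 CPM, and LIG was the highest cluster. *Tagln* (chromosome 9 from 45929619 to 45936058) was at 37.6 and 543 CPM, against 25.2 and 132 CPM. EC4 shared this pattern, with 58.4 and 506 CPM of *Acta2* and 45.2 and 380 CPM of *Tagln*. Of the 12 contractile genes that could be called, none was at least 2-fold above EC4 in both libraries. Only 15 of 6856 genes (0.219%) were, so this count does not set the contractile genes apart. *Cnn1*, a calponin of differentiated smooth muscle, had 4 UMIs in LIG in the earlier library and 248 in the later one, and *Actg2*, an actin of smooth muscle, 11 and 739. Their levels at E17.5 were 26.9 and 80.3 CPM in LIG and 17.8 and 42.1 CPM in EC4. *Myh11*, the smooth muscle myosin heavy chain, had 1 and 7 UMIs in the same order, and *Des*, which encodes desmin, 18 and 6.

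The contractile levels at E17.5 were not shared by all suffixes. *Acta2* was at 94.3, 685 and 666 CPM in LIG cells with suffixes 1, 2 and 3, and *Tagln* at 144, 540 and 574 CPM. The 32 LIG cells of suffix 1 had less of both than the other LIG cells, and their *Acta2* was 0.736 of the 128 CPM in the other labelled cells of that suffix. *Myl9* was at 248, 495 and 505 CPM in the same order.

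Pericytes, the contractile cells along small vessels, also express these genes, and the pericyte marker *Rgs5* was low in LIG. It had 1.25 CPM in LIG and 1.37 CPM in the remaining clusters at E15.5, and 6.19 CPM and 5.9 CPM at E17.5. Unlabelled cells with UMIs of *Rgs5* and of at least 2 of 5 other pericyte genes, which numbered 91 in the earlier library and 181 in the later one, had 1160 and 1827 CPM of *Rgs5*. These cells had 2746 and 1862 CPM of *Acta2*, 495 and 470 CPM of *Tagln*, 178 and 171 CPM of *Actg2*, 51.6 and 75.1 CPM of *Myh11* and 84.6 and 91.6 CPM of *Des*. LIG at E17.5 thus had *Tagln* at a level above these cells and *Acta2*, *Actg2*, *Myh11* and *Des* below. The list of 10 pericyte genes summed to 473 and 526 CPM in LIG and to 304 and 794 CPM in the other labelled cells, with 2 members at 0 in LIG at E15.5 and none at E17.5. *Ndufa4l2* (349 and 414 CPM in LIG) and *Pdgfrb* (43.9 and 59.1 CPM), both known outside pericytes, made up most of the sum in LIG. Of the 5 members that could be called in each direction, none was 2-fold higher or lower in both libraries, where 0.744% and 2.03% of all genes were.

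**Figure D3:**
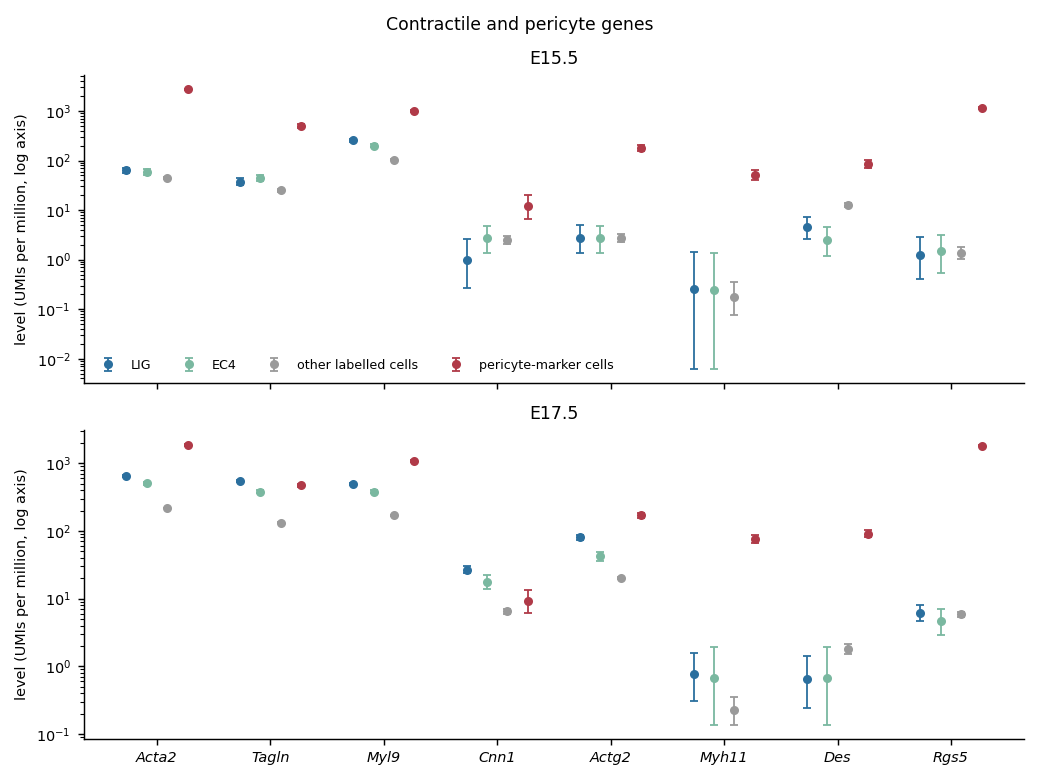
Levels of 8 contractile and pericyte genes at E15.5 (top) and E17.5 (bottom) in LIG, EC4, all other labelled cells and pericyte-marker cells, in CPM on a log axis with exact Poisson 95% intervals. *Rgs5* in LIG is at 1.25 and 6.19 CPM against 1160 and 1827 CPM in pericyte-marker cells, and *Tagln* at E17.5 is at 543 against 470 CPM.

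Wnt and growth factor genes divided between members above and below the other labelled cells. Of 38 listed FGF, WNT, IGF and hedgehog genes, 26 had at least 50 UMIs in each library, 4 were at least 2-fold higher in both (*Sfrp2*, *Igfbp3*, *Fgf9* and *Wnt11*) and 3 lower (*Wif1*, *Dkk2* and *Igfbp6*). Among all genes, 0.744% were higher in both and 2.03% lower. Among ligands, *Wnt11* was at 42.1 and 28.6 CPM, with folds of 2.06 and 2.46, and *Fgf9* at 16.5 and 9.23 CPM, with folds of 2.49 and 2.03, while EC4 had 55.7 and 32.9 CPM of *Fgf9*. *Fgf18* was at 39.9 and 28.3 CPM, with folds of 1.89 and 2.88. LIG was the highest cluster for *Wnt11* and *Fgf18* at E15.5 but not at E17.5. There EC2 had 49.4 CPM of *Wnt11*, and EC4 and EC2 had 44.3 and 30.4 CPM of *Fgf18*. The Wnt inhibitors *Wif1* and *Dkk2* were at 21.3 and 46.5 CPM and at 69.7 and 14.1 CPM, with folds of 0.308 and 0.316 and of 0.442 and 0.291. The 3 targets of hedgehog signalling were near the other cells at E15.5 and below them at E17.5, with folds of 1.27 and 0.396 for *Gli1*, 0.998 and 0.365 for *Ptch1*, and 1.46 and 0.14 for *Hhip*. With suffix 1 alone the fold of *Gli1* at E17.5 was 1.12.

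In the list of 35 TGF-beta and BMP genes, 20 had at least 50 UMIs in each library. *Ltbp1*, which binds latent TGF-beta in the matrix, was at least 2-fold higher in both, with folds of 2.91 and 2.15, and *Tgfb1*, *Bmp2*, *Bmp3* and *Bmp7* were at least 2-fold lower. Among all genes, 0.744% were higher in both and 2.03% lower. *Tgfb3*, a TGF-beta ligand, was at 149 and 116 CPM, with folds of 3.03 and 1.38. *Fbn2*, a fibrillin of embryonic microfibrils, had folds of 1.51 and 2.87, and *Bmp4*, a BMP ligand, 0.895 and 2.02. The receptors *Tgfbr1* and *Tgfbr2* had folds of 1.03 and 0.866 and of 1.02 and 1.65.

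Since *Tac1* encodes neuropeptides, 25 neuropeptide and axon guidance genes were examined, of which 16 had at least 50 UMIs in each library. *Tac1* was 2-fold higher in both libraries, and *Ramp1*, a subunit of the receptor for the peptide CGRP, was lower, with folds of 0.101 and 0.114. The tachykinin receptors were not detected beyond 1 UMI in LIG, with 0 and 1 UMI of *Tacr1* and none of *Tacr2* or *Tacr3*. *Nrp2*, a receptor for class 3 semaphorins, had folds of 2.15 and 1.65, *Sema3a* 1.01 and 2.4, and *Sema5a* 1.16 and 2.91. LIG was the highest cluster for *Sema3a* and *Sema5a* at E17.5. The other listed semaphorins, *Sema3c*, *Sema3d* and *Sema3e*, had folds at E17.5 of 0.968, 1.04 and 0.706. *Ntf3*, which encodes neurotrophin 3, was at 28.3 and 17.1 CPM, with folds of 4.33 and 1.74. EC4 had more *Ntf3* in both libraries, with 31.8 and 66.1 CPM. *Ngfr*, a neurotrophin receptor, had 234 UMIs in LIG at E15.5 and 7 at E17.5. None of 14 genes of mechanical response was 2-fold apart in either direction in both libraries, with 12 tested and median log2 folds of −0.10 and −0.02. At the shares of 0.744% and 2.03% over all genes, this count does not set these 12 genes apart.

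Of 54 patterning transcription factors, 32 had at least 50 UMIs in each library. *Prrx1*, a homeobox factor of limb and head mesenchyme, was at 928 and 885 CPM in LIG, with folds of 2.18 and 2.44, and *Bcl11a* at 25.6 and 17.4 CPM, with folds of 2.32 and 2.52. *Tbx18* was at least 2-fold lower in both. EC4 had as much *Prrx1* as LIG, 865 and 909 CPM. *Zic1* was at 67.4 and 212 CPM, with folds of 1.7 and 3.17, and *En1*, a homeobox factor of the cranial mesenchyme, at 88.7 and 86.6 CPM, with folds of 1.74 and 2.22. *Msx2*, another factor of the suture, had folds of 2.03 and 1.91.

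EC4 was the cluster most like LIG. Across the 6856 genes, Pearson's r of log2(CPM + 1) between LIG and EC4 was 0.982 in the E15.5 library and 0.974 in the E17.5 library, and the next clusters were EC3 with 0.948 and MG1 with 0.963. These values are across genes, which are not independent, and they share the depth of the pools. LIG was at least 2-fold above EC4 in both libraries for 15 of 6856 genes, or 0.219%. *Tac1* had folds over EC4 of 5.4 (3.87 to 7.7) and 5.92 (5.21 to 6.75), *Cpm* of 5.23 (2.63 to 11.6) and 4.69 (3.27 to 6.93), and *Chodl* of 2.85 (2.3 to 3.57) and 6.38 (5.57 to 7.34). Factors with skeletal roles were among the others. *Six2* was at 13.3 and 28.8 CPM in LIG and at 1.47 and 8.9 CPM in EC4, *Gsc* at 17.8 and 45.1 against 2.44 and 19.4 CPM, and *Sox6* at 19.3 and 39.9 against 4.4 and 19.4 CPM. *Matn4*, a matrilin, had 40.9 and 106 CPM against 16.9 and 29.8 CPM, and *Col11a1* 703 and 592 against 240 and 258 CPM. Apart from *Gsc*, these genes were higher in other clusters than in LIG. *Six2* reached 62.1 CPM in MG3 at E15.5 and 85.5 CPM in MG2 at E17.5, and *Sox6* 63.4 and 85.8 CPM in OG1. *Matn4* reached 313 CPM in MG2 at E15.5 and 423 CPM in MG1 at E17.5, and *Col11a1* 2357 CPM in OG4 and 1172 CPM in MG1. The remaining leading genes were *Crispld1*, *1500015O10Rik*, *Ndnf* and *Tceal3*, with the smaller of the 2 folds between 2.3 and 3.12, and *Nrp2*, *Amot* and *Neto2* also passed 2-fold.

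EC4 was at least 2-fold above LIG in both libraries for 47 of 6581 genes, or 0.714%. *Ly6a*, a surface antigen of mesenchymal and blood progenitors, was at 265 and 140 CPM in EC4 and at 39.1 and 18 CPM in LIG. *C1qtnf3*, which marks EC4, was at 898 and 1492 CPM against 223 and 366 CPM, and *Kcnj8*, a potassium channel subunit, at 117 and 106 against 26.6 and 14 CPM. *Tmem100* and *Ramp3* were at 170 and 76.1 against 32.8 and 12.8 CPM and at 62 and 30.9 against 14 and 3.58 CPM. LIG thus had *C1qtnf3* below EC4 and above the other labelled cells, which had 119 and 165 CPM. Of the 8 listed ectocranial genes, *Pi16*, *Dpt*, *Ly6a* and *Clec3b* were at least 2-fold below the other labelled cells in LIG in both libraries.

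Between the libraries, LIG levels were set against those of the other labelled cells, as the ratio of the E17.5 to the E15.5 level in LIG divided by the same ratio in the other cells. The relative ratio was at least 2 for 69 of 6856 genes (1.01%) and at most 0.5 for 111 (1.62%), and the median log2 value over all genes was −0.07. *Tac1* was among the highest, since its LIG level was 55.4 CPM at E15.5 and 340 CPM at E17.5 while the other labelled cells had 10.4 and 11.4 CPM, a relative ratio of 5.56. EC4 also had more *Tac1* at E17.5, with 10.3 and 57.4 CPM. *Chodl* had a relative ratio of 2.22, *Sfrp2* of 2.82, *Acta2* of 2.14 and *Tagln* of 2.76.

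*Crabp1* (ENSMUSG00000032291), which encodes a protein that binds retinoic acid, had the highest relative ratio, 14.1. Its LIG level was 120 CPM at E15.5 and 119 CPM at E17.5, and that of the other labelled cells 345 and 24 CPM. Its high ratio thus came from the other cells, and at E17.5 it was at 8.84, 126 and 120 CPM in LIG cells of suffixes 1, 2 and 3. *Stmn2* (6.88), *Ddah1* (3.83), *Galnt17* (3.76), *Tmem132c* (3.99) and *Ch25h* (4.19) were also lower in the other cells at E17.5, with LIG ratios of 0.294, 1.17, 1.1, 0.626 and 1.08. *Hspb1*, a small heat shock protein gene, *Nnmt*, a methyltransferase gene, and *Hmcn1*, a matrix gene, had higher levels in LIG at E17.5, with LIG ratios of 2.35, 3.15 and 2.35.

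Genes with the lowest relative ratios included *Hhip*, at 39.4 and 6.41 CPM in LIG and 27 and 45.9 CPM in the other labelled cells, a relative ratio of 0.096. *Agtr2*, a receptor for angiotensin II, was at 336 and 10.2 CPM in LIG and at 715 and 122 CPM in the other cells. *Alpl*, the alkaline phosphatase gene of bone, was at 43.6 and 27.2 CPM in LIG and at 59.4 and 277 CPM in the other cells. *Spon1* (0.121), *Cadm1* (0.13), *Mpped2* (0.174), *Cd24a* (0.21), *Mgst3* (0.223), *Fam49a* (0.228) and *Prss35* (0.243) completed the 10 lowest, and each was lower in LIG at E17.5 than at E15.5.

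The reference moved these calls. With the 14 other clusters weighted equally, 33 of the 69 and 71 of the 111 genes remained, and with the LIG levels alone 16 and 48. Genes of the response to dissociation, such as *Fos* and *Jun*, summed to 2996 CPM in LIG at E15.5 and 815 CPM at E17.5, and to 4316 and 1996 CPM in the other cells, and haemoglobin made up a median of 1.27% and 0.0559% of the UMIs of LIG cells. *Igf2* was at 64.4 and 2078 CPM in LIG and at 42.5 and 1933 CPM in the other labelled cells, so that both populations shared this difference. The part of dissociation, blood and preparation in these differences was not tested.

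**Figure D4:**
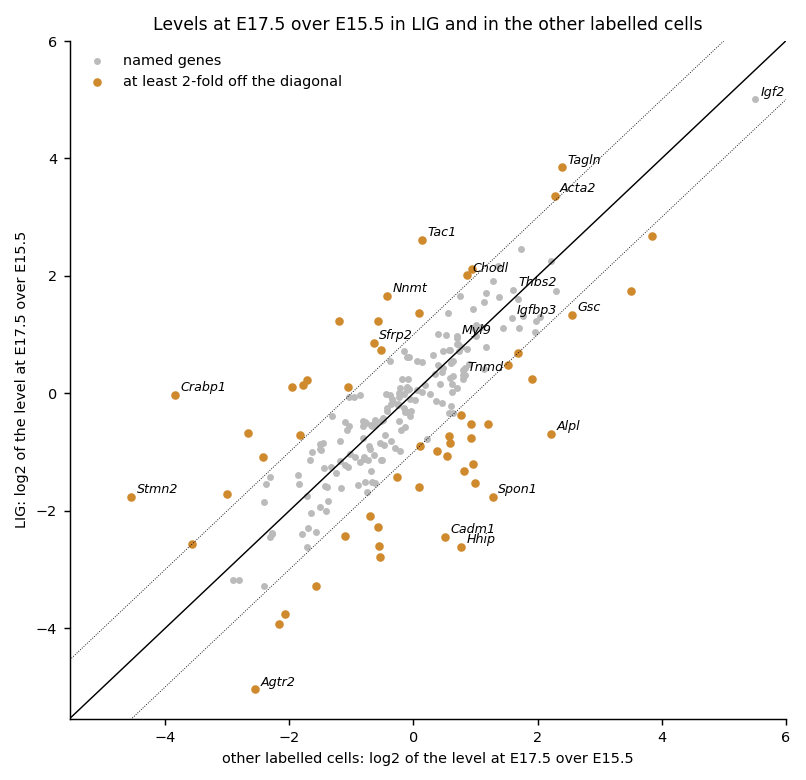
Genes named by the lists and rules, placed by the log2 ratio of their levels at E17.5 over E15.5 in the other labelled cells (horizontal axis) and in LIG (vertical axis), with orange points at least 2-fold off the diagonal. *Tac1*, *Chodl*, *Acta2* and *Tagln* lie above the upper dotted line, *Hhip* and *Agtr2* below the lower one, and *Crabp1* lies far to the left because its level in the other cells was 345 CPM at E15.5 and 24 CPM at E17.5.

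LIG cells were clustered again within each library, which gave 5 sub-clusters at E15.5, with 214, 118, 98, 37 and 30 cells, and 4 at E17.5, with 255, 211, 143 and 66. At E17.5 the contractile genes and *Tac1* were high in different sub-clusters. Sub-cluster 2, led by *Epyc*, a small proteoglycan gene, *Cnn1* and *Actg2*, had 1207 CPM of *Acta2*, 1010 CPM of *Tagln* and 162 CPM of *Actg2*, whereas sub-cluster 1 had 120, 183 and 10.6 CPM. Sub-cluster 1 had 605 CPM of *Tac1*, 480 CPM of *Chodl* and 15717 CPM of *Sfrp2*, and sub-cluster 2 had 171, 288 and 9215 CPM. *Tnmd* and *Scx* went with the contractile genes, at 857 and 71.1 CPM in sub-cluster 2 against 599 and 22.5 CPM in sub-cluster 1, while *Mkx* was at 113, 90.7, 91.3 and 92.8 CPM in sub-clusters 1 to 4.

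Sub-cluster 1 at E17.5 was further led by *Gna14* and *Arhgap20*, and held more *C1qtnf3* (593 CPM) and *Meox2* (95.5 CPM, against 20.4 in the rest of LIG) than the others. Sub-cluster 3 was led by *Gpha2* (74.8 against 10.7 CPM) and *Rab38*, and *Ptch1* (42.9 against 13.4 CPM) and *Wif1* (102 against 32.7 CPM) were among its 10 leading genes, with the lowest *Tnmd* (390 CPM) and *Chodl* (169 CPM) of the 4. Sub-cluster 4 was led by cell cycle genes such as *Hmmr* and *Tpx2*, had a median of 18409 UMIs per cell against 10986 in sub-cluster 1, and held 21 of the 39 cells called doublets. *Acta2* was high in it too, at 972 CPM. The pericyte marker *Rgs5* was at 7.5, 3.12, 10.5 and 4.8 CPM in sub-clusters 1 to 4, lowest in the sub-cluster with the most *Acta2*. *Myh11*, with 7 UMIs in all, had 1, 4, 1 and 1 UMIs in them. Of the 32 suffix 1 cells, 1 was in sub-cluster 2, against 107 of 314 and 103 of 329 cells of the other suffixes.

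At E15.5 no sub-cluster had *Acta2* above 106 CPM. Sub-cluster 1 was led by *Msx1*, a homeobox gene, with 78.7 CPM against 6.23 CPM in the rest of LIG, and *Zic1* (117 against 28.9 CPM), and had the highest *Chodl* (111 CPM). Sub-cluster 2, with *Dcn*, which encodes decorin, at 8583 against 3176 CPM, had little *Tac1* (7.53 CPM) or *Acta2* (7.53 CPM). Sub-cluster 3 was led by *Ebf2* (205 against 32.8 CPM) and *Crabp1* (333 against 75.3 CPM), with *Tac1* at 77.4 CPM and *C1qtnf3* at 14.3 CPM. The 37 cells of sub-cluster 4 were led by *Dpt* (231 against 14.5 CPM) and *Clec3b* (550 against 77.5 CPM), genes of the ectocranial list, and had the lowest *Tnmd* (336 CPM) and *Mkx* (22.4 CPM). Of these cells, 6 were called doublets, against 26 of all 497 LIG cells, and their median depth was 1.26 times that of LIG. Sub-cluster 5 held cycling cells, led by *Hist1h1b* and *Cenpe*. These genes made the sub-clusters, so their differences are descriptions.

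**Figure D5:**
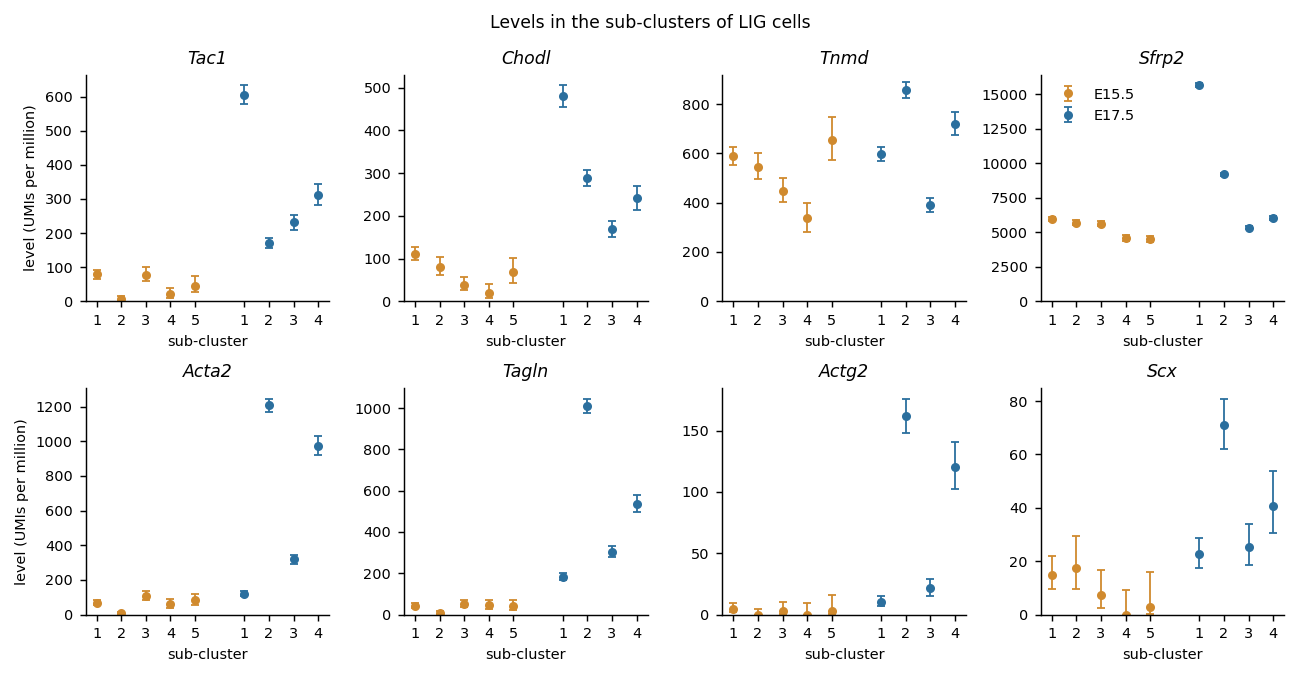
Levels of 8 genes in the sub-clusters of LIG cells, in CPM on linear axes that start at 0, for the 5 sub-clusters at E15.5 (orange) and the 4 at E17.5 (blue), with exact Poisson 95% intervals. At E17.5 *Tac1*, *Chodl* and *Sfrp2* are highest in sub-cluster 1 (605, 480 and 15717 CPM) and *Acta2*, *Tagln*, *Actg2* and *Scx* in sub-cluster 2 (1207, 1010, 162 and 71.1 CPM).

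The boundary of the *Acta2*-high sub-cluster at E17.5 depended on the settings. *Acta2* in it was 6.16 times the level in the other LIG cells outside the cell cycle sub-cluster, and 4.01 times without the doublet calls and 2.56 times with the listed contractile, tendon and cell cycle genes left out of the clustering, when the sub-cluster held 54 and 56 cells in place of 211. *Tac1* was below the other LIG cells under all of these settings, at 0.369, 0.642 and 0.777 of their level. At E15.5 *Tac1* was at 1.51, 3.51 and 3.67 times the other cells in the sub-cluster with the most *Acta2* under the same settings. With the cell cycle sub-cluster left out it was at 0.84 of their level, so its direction at E15.5 depended on the setting. *Scx* was at 0.527, 1.43 and 1.45 times the other cells at E15.5 and 3.01, 2.07 and 1.46 times at E17.5. These values are for the main setting, without doublet calls, and with the listed genes left out, so the direction of *Scx* at E15.5 also depended on the setting.

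Single cells were also compared without clusters, after thinning to 3000 UMIs. At E17.5, 285 of 675 LIG cells had a UMI of *Acta2*, and *Tagln* was found in 71.6% of them (66 to 76.7%) and in 27.9% of the 390 others (23.5 to 32.7%). *Scx* was found in 15.4% (11.4 to 20.2%) and 6.41% (4.19 to 9.32%), *Tnmd* in 82.8% and 70%, and *Crabp1* in 25.6% and 11.8%. Each of these genes was thus found more often beside *Acta2*. *Tac1* was found less often there, in 37.2% (31.6 to 43.1%) against 53.8% (48.8 to 58.9%), and *Chodl* in 46.3% against 59.5%. *Chodl* was found in 65.8% of the 316 cells with *Tac1* (60.3 to 71%) and in 43.5% of the cells without (38.3 to 48.8%). *Rgs5* was found in 1.4% and 1.54% of cells with and without *Acta2*. At E15.5, 42 of 482 cells had *Acta2*, and *Tagln* was found in 11.9% of these (3.98 to 25.6%) and 6.82% of the others (4.65 to 9.59%), a difference not detectable at this depth. *Tac1* was found in 9.52% (2.66 to 22.6%) and 10.2% (7.56 to 13.4%) of the same cells.

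Markers of other cell types were low or at the level of the other labelled cells. In LIG at E15.5 and E17.5, the lists summed to 19.3 and 19.7 CPM for 6 endothelial genes, 47.1 and 172 CPM for 7 macrophage genes, 2.76 and 5 CPM for 7 genes of glia and nerve and 13.5 and 8.8 CPM for 13 of skeletal muscle, against 25.8 and 26.2, 48.9 and 164, 3.36 and 5.28, and 68.6 and 9.46 CPM in the other labelled cells. The macrophage list was even across the sub-clusters. The 11 bone genes summed to 163 and 317 CPM against 2334 and 3128 CPM, and 7 of the 9 that could be read were at least 2-fold lower in both libraries. *Sp7*, a factor required for osteoblasts, had 5 UMIs at E15.5 and 149 at E17.5, or 1.25 and 16.2 CPM. The 11 cartilage genes summed to 734 and 311 CPM against 712 and 343 CPM, and *Acan*, which encodes aggrecan, had folds of 1.43 and 1.31.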

How the data were processed

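The authors deposited 1 count matrix per stage, with raw UMI counts per gene and barcode from 10x Genomics Chromium 3′ v2 libraries, before their cell filters and without normalization. Reads were aligned to mm10 and counted with Cell Ranger, and version 3.1.0 stands in the header of the earlier matrix, whereas the study's methods name an older one. The submitters' processing notes also name FastQC 0.11.7, MultiQC 0.9 and Seurat 3.2.0. Cluster labels and phase calls came from the authors' cell table, in which the deposited percent values of mitochondrial UMIs and the cell cycle score values were not used for any result. The count columns of that table served to check UMIs per cell. Of 5340 cells in the table at E15.5, 5 were not in the matrix. Another table deposited for the integrated cells was not used here.

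Counts of LIG cells were summed per library and expressed as CPM of the pooled cells. The members and gene lists were chosen with earlier results of these data known. The E15.5 matrix listed 31053 genes and the E17.5 matrix 27998. Of the genes listed, 27514 were in both matrices, matched by Ensembl identifier, and *Snorc* was the only list member not matched. Genes were read where LIG had at least 50 UMIs in each library, and called at 2-fold in both. A denominator of 0 was set to 3 counts. Named genes were those of the lists, the 25 with the largest smaller fold over the other labelled cells, the 10 highest and 10 lowest by relative ratio, the 10 leading genes in each direction against EC4, and the 10 leading genes of each sub-cluster. Cells were thinned to 3000 UMIs, and 15 shallower LIG cells at E15.5 were left out. Of the LIG cells, 11 at E15.5 lay outside the authors' stated limits of 1000 UMIs, 1000 genes, 7.5% mitochondrial and 3% Hbb or Hba UMIs, and were kept. Doublet scores were computed with Scrublet in each suffix at an expected rate of 0.06, and cells at or above the 94th percentile were called only for an alternative. Sub-clusters of LIG cells were found with Leiden at resolution 0.5, from a graph of 15 neighbours in 20 principal components of the 2000 most variable genes. The tools were scanpy 1.11.5 with igraph 0.11.9, anndata 0.12.19, matplotlib 3.10.9, pandas 2.3.3, scipy 1.17.1 and numpy 2.4.6 under Python 3.11.15, and the computation of levels and calls was tested on simulated data. Gene positions are from GENCODE vM21 on GRCm38 and sequences from RefSeq. Motifs were searched on both strands, which are equal for both motifs. With 1 library per stage no p-value was computed. Alternatives were other limits and minimums, scalings, references, cell filters, suffixes, depths and clustering settings. Some listed or leading genes are not reported here.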

Additional observations from a re-analysis of the deposited data

Results flagged for a closer look

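The levels of 4 genes in LIG were at least 2-fold apart from the other labelled cells in opposite directions at E15.5 and E17.5. They were sought among genes with at least 5 UMIs in LIG in each library for which LIG had, or the level of the other cells would have given, 50 UMIs in both libraries. The difference between the libraries was not tested, since each stage has 1 library. *Mpped2*, which encodes a metallophosphoesterase, had a fold of 2.13 at E15.5 and 0.371 at E17.5. *Cadm1*, a cell adhesion molecule, had 2.54 and 0.331. *Crabp1* had 0.349 and 4.93, and with suffix 1 alone its fold at E17.5 was 0.555. *Cldn10*, which encodes a tight junction claudin, had 0.328 and 2.31, at 5.77 CPM in LIG at E15.5, which is under 50 UMIs, and 14.1 CPM at E17.5.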

How the results depend on the processing

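No paired analysis was possible because each stage has 1 library, and for the same reason no replicate could be left out. LIG was 6.05% of all kept cells in the E15.5 library and 7.7% in the E17.5 library, and 2.59%, 11.3% and 11.6% of labelled cells with suffixes 1, 2 and 3. The counts of genes moved with the limits, by construction. At 1.5-fold and 3-fold the 51 genes above the other labelled cells became 152 and 21, the 14 listed genes among them 30 and 7, the 15 genes above EC4 58 and 4, the 69 with higher relative ratio 241 and 12, and the 111 with lower 386 and 30. At minimums of 20 and 200 UMIs the 51 became 77 and 23, the 15 became 39 and 5, the 69 became 145 and 23, and the 111 became 228 and 27. Thinned cells gave 29 genes above the other labelled cells and 6 above EC4. Suffix 1 alone, with 32 LIG cells, gave 19, 4, 11 and 7 for the 51, 15, 69 and 111, where fewer cells leave fewer genes with 50 UMIs. With no reference the relative ratios gave 151 and 455. Resolution 0.8 gave 8 sub-clusters in each library. In the *Acta2*-high sub-cluster at E17.5, *Acta2* was 3.94 times the other cells at resolution 0.8, 4.01 without doublet calls and 2.56 with the listed genes left out, and *Tac1* 0.556, 0.642 and 0.777. Thinning gave shares of LIG cells of 63.9% and 75.7% for *Tnmd*, 18.9% and 28.1% for *Mkx*, 11% and 47.6% for *Tac1*, 17.8% and 53.9% for *Chodl* and 1.66% and 9.33% for *Scx*. With suffix 1 alone, 5 folds at E17.5 crossed 1, to 0 for *Inpp4b*, 0.555 for *Crabp1*, 0.848 for *Stmn2*, 0.736 for *Acta2* and 1.12 for *Gli1*, and the cause was not tested. The other 59 alternative values for shares, counts and sub-clusters stayed within 1.5 times or the counting interval, among them those with the median-of-ratios scale, which shifted log2 folds by at most 0.038. Equal weights for the 14 clusters moved 287 of 470 folds of named genes beyond their counting intervals and reversed none. Alternatives with equal weights for the clusters as stage reference, without suffix 1, and without the cell cycle sub-cluster were added after the data were seen. LIG cells at E15.5 were shallower than at E17.5, and their pool held 3988807 UMIs. *Cnn1*, *Actg2* and *Myh11* had 11 UMIs or fewer in that pool. In LIG at E17.5 *Cnn1* and *Actg2* were at 26.9 and 80.3 CPM, so their pooled levels were lower at E15.5. *Myh11*, at 0.76 CPM in LIG at E17.5, was too rare to compare.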

Other observations

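Some low genes stood out in LIG although they did not reach 50 UMIs in each library, and they were chosen after their values were seen. *Barx1*, a homeobox factor of craniofacial mesenchyme, had 47 UMIs in LIG at E15.5, or 11.8 CPM against 0.896 CPM in the other labelled cells, and 18 UMIs at E17.5, or 1.95 against 1.37 CPM. *Ebf2*, an early B-cell factor gene also expressed in mesenchyme, had 251 UMIs at E15.5, when LIG was the highest of the 15 clusters at 62.9 CPM, and 3 UMIs at E17.5. *Myh8*, the perinatal myosin heavy chain of skeletal muscle, had 24 UMIs at E15.5, or 6.02 CPM against 0.403 CPM in the other labelled cells, and 30 at E17.5, or 3.26 against 0.108 CPM. LIG was the highest cluster for it in both libraries, with UMIs in 4.23% and 2.67% of cells, while the macrophage-marker cells had none. The other skeletal muscle genes did not share this, since their list including *Myh8* summed to 13.5 and 8.8 CPM.

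*Lmod1*, a leiomodin of smooth muscle, had 14 UMIs in LIG at E15.5 and 42 at E17.5, with folds of 3.2 and 6.34. In sub-cluster 1 at E15.5, *Cpa3* (62 against 14.7 CPM in the rest of LIG) and *Tpsb2* (29.9 against 7.57 CPM), genes of mast cells, were among the 10 leading genes, and the summed macrophage markers did not differ between sub-clusters in the same way, lying between 37.1 and 50.2 CPM at E15.5.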
